A study of Homo sapiens with 6 samples.

Results

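The genes described here are genes for oxidative phosphorylation and for the mitochondrial ribosome in an RNA-seq table of AGS cells treated with SSD (saikosaponin-D, a triterpenoid saponin of Radix Bupleuri). A gene was taken if the table annotates it with the KEGG pathway 00190 (Oxidative phosphorylation) or if its name starts with MRPL or MRPS, and genes whose name starts with ATP6 were to be left out. This gave 23 of the 1099 genes listed, 14 by the pathway and 9 by an MRPL name, with 0 MRPS genes and 0 genes left out by the ATP6 rule. By role they were 4 genes named as complex I subunits, 1 of complex III, the electron carrier CYCS, 3 of complex IV, 4 of ATP synthase, the pyrophosphatase PPA1 and 9 proteins of the large mitochondrial ribosomal subunit. Complex II and the genes encoded by mitochondrial DNA had 0 members in the table. The table also lists NDUFB11, a complex I subunit, and ATP5MK, a small ATP synthase subunit, without that pathway, so they are not among the 23.

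AGS is an established human gastric adenocarcinoma cell line, given as wild type in the labels, and both groups were cultured for 24 h, 3 libraries with vehicle and 3 with SSD. The protocol text of the labels gives 10 μM of a compound named L14-8 and another cell line, C4-2B, whereas the study's methods give a lower dose of SSD, so the compound name, the cell line and the dose are not settled by the sources. AGS, vehicle and SSD are used here as the sample titles and characteristics give them. The column names of the table and the study's RNA-seq methods also give AGS. The study describes its results in general as coming from independent experiments, but the labels do not say that the 3 libraries of a group came from separate cultures, and if they did not, the p-values measure only the technical spread between these libraries. The table is a selection on the outcome, since all 1099 rows carry an authors' p under 0.05, so a gene of this machinery that is missing from it may have been measured and not selected. Of 8 gastric markers looked for, TFF1 was listed, at 33.3 to 81.5 TPM, and of 6 fibroblast markers COL1A1, at 10.0 to 15.8 TPM. Of the epithelial, prostate and leukocyte markers looked for, 0 of 8, 0 of 8 and 0 of 4 were listed. Since genes are listed for a change, these counts cannot tell which cells were used. TFF1 itself was lower under SSD, with a log2 fold change of -0.75.

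Oxidative phosphorylation takes place in the inner mitochondrial membrane. Complexes I, III and IV pass electrons from NADH to oxygen and pump protons out of the matrix, cytochrome c shuttles electrons between complexes III and IV, and ATP synthase uses the returning protons to make ATP. A few catalytic subunits are encoded in mitochondrial DNA and are made inside the organelle by the mitochondrial ribosome, whereas the genes described here are nuclear, and their proteins are imported.

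Levels are given as TPM (a read share corrected for transcript length and scaled to the same total in each library), and changes as log2 fold changes of SSD over vehicle. The changes come from edgeR's quasi-likelihood test on the estimated counts, put on a whole-library scale taken from each library's ratio of counts to TPM. A gene was called at a Benjamini-Hochberg adjusted p under 0.05, with 12000 genes assumed tested. Counts over the table ran from 3084337 to 4640114 per library, which is part of each library and not its depth, and the table held 30.1% to 33.1% of the TPM. The members had a mean of 361 to 4195 counts per library. For a single gene, the smallest p that an exact permutation test (two-sided) can reach at this size is 0.1.

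Of the 23 oxidative phosphorylation and mitochondrial ribosome genes, 7 were called lower under SSD, and the other members had estimates below 0 that did not pass the test. Summed over the 23 genes, vehicle libraries held 5266, 5328 and 5186 TPM against 4892, 4600 and 4667 TPM with SSD, and the groups did not overlap. The whole table separated in the same way, with 33.1%, 32.8% and 32.3% of the TPM under vehicle and 31.1%, 30.1% and 30.4% under SSD. In RNA from whole cultures, fewer cells with the members' transcripts and less of them per cell cannot be told apart. All 23 log2 fold changes were below 0, between -0.35 (MRPL36) and -0.10 (COX7C), against 712 of all 1099 genes (64.8%). Their median was -0.22, a change of -14.3%, against -0.14 over the table. Of the 387 table genes above 0, 367 were called, against 207 of the 712 below 0. The table's weak changes thus lay mostly below 0, and how far its selection sets the members' common direction was not tested. By the edgeR test 0 of the 23 were called higher beside the 7 called lower, where 18.8% of the table was called lower and 33.4% higher. The 7 were CYCS, ATP5F1E, COX7B, NDUFA4, ATP5MF, PPA1 and ATP5MC3, all from the pathway, and 0 of the 9 ribosomal protein genes were called. At an unadjusted p under 0.05 the count was 21 of 23, beside 54.2% of the table that was lower at that limit. In either direction, 983 of the 1099 genes were under it in edgeR. The table was selected at the same limit of the authors' p, so such counts, here and below, are largely set in advance. Just inside the threshold lay COX7B (adjusted p = 0.0432) and just outside UQCR11 (adjusted p = 0.0519). NDUFB11 and ATP5MK, which are outside the 23, had log2 fold changes of -0.16 and -0.18 with adjusted p of 0.182 and 0.281 in edgeR.

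The number of calls moved with the scale. With TMM, which sets the scale from the table's own genes, the split over the table went from 207 lower and 367 higher to 85 lower and 384 higher (7.73% and 34.9%), and CYCS was the 1 member called lower. The members' calls moved with those of the table in the other settings too. DESeq2's size factors called 1 member and 7.64% of the table lower, table totals 3 and 11%, and the replicate number as a block 1 and 7.73%. DESeq2's Wald test called 9 members and 26.2% of the table, and adjustment over the table alone 21 and 52.8%. Limma on log2(TPM + 1) or log2(TPM + 0.1) called 0 members and 6.37%. Without a count filter, and with a mean of at least 100 counts, it was 7 members with 18.8% and 18.5%. TMM raised every log2 fold change by 0.07, and all 23 members still lay below 0, with a median of -0.15 against -0.06 over the table.

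**Figure D1:**
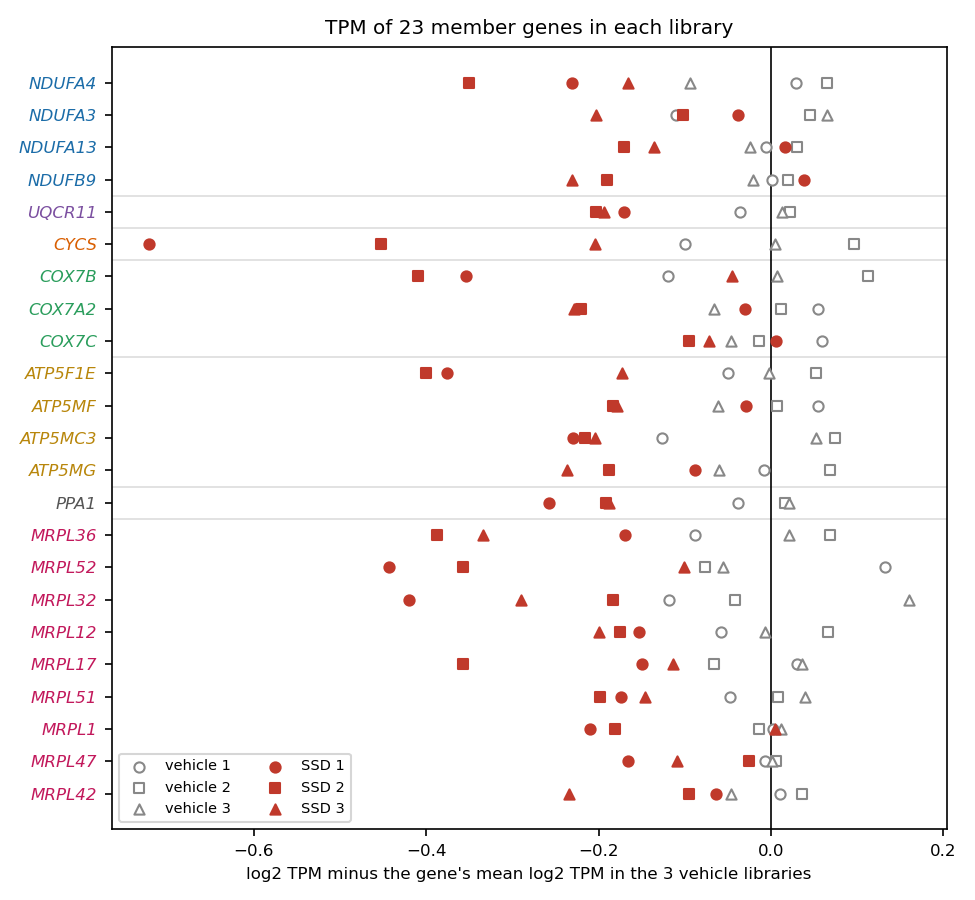
Level of each of the 23 genes in each library, as log2 TPM minus the gene's mean log2 TPM over the 3 vehicle libraries (horizontal axis), with genes grouped and coloured by role. Open grey symbols are vehicle and filled red symbols SSD libraries, with circles, squares and triangles for replicates 1, 2 and 3; in 15 of the 23 genes all SSD symbols lie to the left of all vehicle symbols, and CYCS spreads most under SSD.

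Of the 4 genes named as complex I subunits, 1 was called lower. NDUFA4, a small protein first assigned to complex I and now regarded as a subunit of complex IV (ENSG00000189043, chromosome 7, 10931951 to 10940256 on the minus strand, GRCh38), stood at 65.7, 67.4 and 60.3 TPM under vehicle and at 54.9, 50.5 and 57.4 TPM under SSD. Every SSD library was below every vehicle library. It fell from 64.5 ± 3.67 to 54.3 ± 3.49 TPM (SD, n = 3), with a log2 fold change of -0.26 (SE 0.0651, where SE is the standard error, and adjusted p = 0.0429 in edgeR).

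The most abundant of the 4, NDUFA13, an accessory subunit also known as GRIM-19, stood at 515, 528 and 509 TPM under vehicle and at 523, 459 and 471 TPM under SSD. SSD replicate 1 lay among the vehicle libraries and the other two below them. Its log2 fold change was -0.17 (SE 0.0581, adjusted p = 0.232 in edgeR). The accessory subunits NDUFA3 and NDUFB9 had log2 fold changes of -0.22 and -0.16 with adjusted p of 0.167 and 0.425 in edgeR. In both, SSD replicate 1 was the highest SSD library in TPM, within the vehicle range for NDUFA3 and above it for NDUFB9. The median of the 4 genes was -0.19.

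UQCR11, a small subunit of complex III and the only member of that complex, stood at 78.2, 81.4 and 80.9 TPM under vehicle and at 71.2, 69.6 and 70.1 TPM under SSD. Both groups were tight and did not overlap. The level was 80.2 ± 1.72 TPM under vehicle, against 70.3 ± 0.809 TPM under SSD (SD, n = 3). Its log2 fold change of -0.22 (SE 0.0574) missed the threshold.

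CYCS encodes cytochrome c, the carrier between complexes III and IV that also triggers caspase activation when released into the cytosol (ENSG00000172115, chromosome 7, 25120091 to 25125361 on the minus strand, GRCh38). Its level was 125, 143 and 134 TPM under vehicle, against 81.2, 97.8 and 116 TPM under SSD. The groups did not overlap, and the SSD libraries were spread more widely than the vehicle libraries. It fell from 134 ± 9.10 to 98.4 ± 17.5 TPM (SD, n = 3), a change of -26.6% in TPM.

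On estimated counts the change in CYCS was smaller and the libraries were closer together. On the whole-library scale it had 3755, 3728 and 3613 counts under vehicle and 3051, 2817 and 2977 under SSD. SSD replicate 1 was thus the highest SSD library in counts and the lowest in TPM. The log2 fold change was -0.33 (SE 0.0478), with an adjusted p of 0.00422 in edgeR, the smallest among the members. CYCS was called in 14 of the 17 alternative settings, among them each left-out library, and not with limma on TPM or with the length offset described below. GENCODE lists 40 pseudogene copies of CYCS, so its reads may be shared between near-identical sequences.

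The 3 members with a COX name are small nuclear-encoded subunits of cytochrome c oxidase (complex IV), the enzyme that reduces oxygen. NDUFA4, described above, was counted with complex I by its name. COX7B (ENSG00000131174, chromosome X, 77899438 to 77907373 on the plus strand, GRCh38) stood at 35.1, 41.2 and 38.2 TPM under vehicle and at 29.8, 28.7 and 36.9 TPM under SSD. SSD replicate 3 overlapped the vehicle libraries and the other two lay below them. It fell by a log2 fold change of -0.28 (SE 0.0705, adjusted p = 0.0432 in edgeR), from 38.1 ± 3.05 to 31.8 ± 4.46 TPM (SD, n = 3).

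COX7C, the most abundant of the 3, had the smallest difference of all members. It stood at 561, 534 and 522 TPM under vehicle and at 541, 504 and 512 TPM under SSD, and the groups overlapped. Its log2 fold change was -0.10 (SE 0.0537, adjusted p = 0.947 in edgeR), and its mean TPM differed by -3.66%. COX7A2 lay between them, with 444 ± 18.8 TPM under vehicle and 398 ± 31.6 TPM under SSD (SD, n = 3) and a log2 fold change of -0.23 (adjusted p = 0.0632 in edgeR).

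ATP synthase had the most calls by edgeR, 3 of 4, beside 18.8% of the table called lower. Its median log2 fold change of -0.22 lay near that of the 3 members with a COX name, -0.23. With TMM, and with the length offset described below, it had 0 calls. ATP5F1E, the epsilon subunit of the catalytic F1 part (ENSG00000124172, chromosome 20, 59025467 to 59032382 on the minus strand, GRCh38), stood at 64.0, 68.7 and 66.1 TPM under vehicle and at 51.0, 50.2 and 58.7 TPM under SSD. All SSD libraries were below all vehicle libraries, SSD replicate 3 nearest to them. It fell from 66.3 ± 2.36 to 53.3 ± 4.71 TPM (SD, n = 3), with a log2 fold change of -0.29 (SE 0.0634, adjusted p = 0.0228 in edgeR). Its exons overlap those of TUBB1 on the other strand, and whether the counting used strand is not given in the sources used here.

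ATP5MF, subunit f of the membrane part and the most abundant member, stood at 1005, 972 and 928 TPM under vehicle and at 949, 852 and 855 TPM under SSD. In TPM the groups overlapped through SSD replicate 1, whereas on whole-library counts they did not, with 1322, 1400 and 1351 counts against 1194, 1097 and 1184. The log2 fold change on counts was -0.23 (SE 0.0564, adjusted p = 0.0403 in edgeR), while the mean TPM differed by -8.57%. Its exons overlap the genes PTCD1 and ATP5MF-PTCD1 on the same strand, and GENCODE lists 5 pseudogene copies.

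ATP5MC3, one of several genes for the same subunit of the proton-carrying ring, stood at 214, 246 and 242 TPM under vehicle and at 199, 201 and 203 TPM under SSD. The SSD libraries were nearly equal and all below the vehicle libraries. It fell from 234 ± 17.4 to 201 ± 1.78 TPM (SD, n = 3), with a log2 fold change of -0.21 (SE 0.0499, adjusted p = 0.0361 in edgeR). ATP5MG, subunit g of the membrane part, had a log2 fold change of -0.19 (adjusted p = 0.128 in edgeR).

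PPA1 is a cytosolic inorganic pyrophosphatase that the KEGG pathway lists beside the complexes. It stood at 340, 353 and 355 TPM under vehicle and at 292, 306 and 307 TPM under SSD, with a wide gap between the groups. It fell from 349 ± 7.92 to 302 ± 8.21 TPM (SD, n = 3), with a log2 fold change of -0.22 (SE 0.0453, adjusted p = 0.0151 in edgeR).

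The 9 members of the large mitochondrial ribosomal subunit had log2 fold changes from -0.35 to -0.12 with a median of -0.19, and by edgeR 0 were called, although 8 had an unadjusted p under 0.05. In TPM, 8 of the 9 had every SSD library below every vehicle library, and on whole-library counts all 9 did. The same held for 5 and 11 of the 12 subunits of the respiratory chain and ATP synthase. Over the table, groups were separated in this way, downward, for 486 of 1099 genes in TPM (44.2%) and for 575 on whole-library counts (52.3%).

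MRPL52 was the most abundant of these ribosomal protein genes. Its level was 235, 203 and 206 TPM under vehicle, against 158, 167 and 200 TPM under SSD. The groups did not overlap, but SSD replicate 3 came within a few TPM of vehicle replicate 2. The log2 fold change was -0.32 (SE 0.0908, adjusted p = 0.0860 in edgeR).

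MRPL36, the member with the largest log2 fold change, -0.35 (SE 0.0943, adjusted p = 0.0653 in edgeR), had 87.5 ± 4.82 TPM under vehicle and 71.3 ± 5.72 TPM under SSD (SD, n = 3). It also had the fewest counts of the members, a mean of 361 per library. MRPL32, whose exons overlap those of PSMA2 on the other strand, followed at -0.30 (adjusted p = 0.138 in edgeR). The other ribosomal protein genes, MRPL12, MRPL17, MRPL51, MRPL1, MRPL47 and MRPL42, lay between -0.19 and -0.12. MRPL1 was the ribosomal member with an unadjusted p above 0.05, and in it SSD replicate 3 stood at 77.2 TPM, within the vehicle range of 76.2 to 77.5 TPM.

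**Figure D2:**
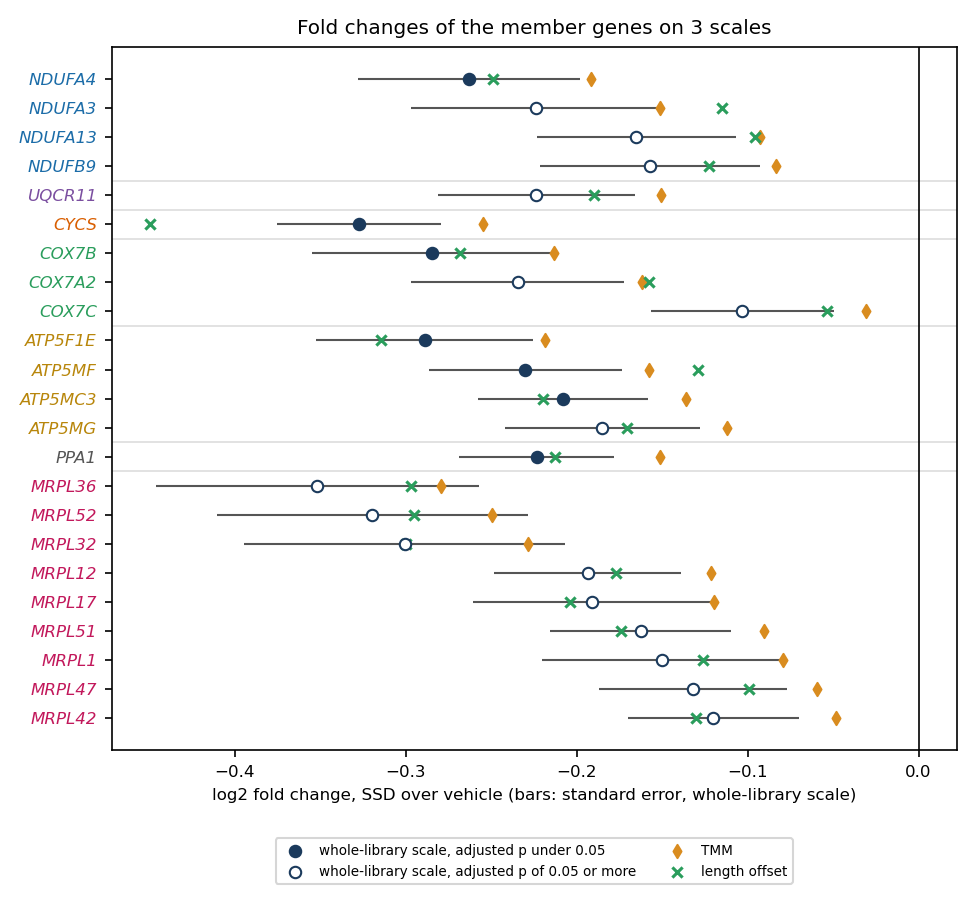
Log2 fold change of SSD over vehicle (horizontal axis) for the 23 genes, grouped by role. Circles with standard error bars are the whole-library scale, filled where the adjusted p was under 0.05, diamonds are TMM and crosses the length offset; every point lies below 0, and CYCS is farthest left with the length offset, at -0.45.

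Promoter sequence was looked at because the members moved in one direction. RefSeq windows of 250 bases before to 50 after the annotated start (GRCh38.p14) were matched by symbol for 18 of the 23 members. They were searched on both strands, as exact letters, for motifs named after factors known for nuclear genes of mitochondrial proteins: NRF1 (core CGCANGCG), ETS factors such as GABP (CCGGAAG) and YY1 (AAGATGGCG), and for the E-box (CACGTG) bound by MYC. None of these motifs contains another. The NRF1 letters were in the windows of 4 of 18 members (UQCR11, NDUFA3, MRPL17 and MRPL36), 22.2%, beside 20.9% of 872 table genes and 12% of 27305 genes with a window. The same 4 members held the core with a G before and a C after it, beside 13% and 6.98%. The ETS letters were in 6 (ATP5MG, MRPL47, MRPL51, MRPL52, NDUFA13 and UQCR11), 33.3%, beside 21.2% and 12.2%. The YY1 letters were in 4 (MRPL32, MRPL36, MRPL42 and MRPL52), 22.2%, beside 5.39% and 2.14%. The E-box was in 2 (MRPL36 and UQCR11), 11.1%, beside 15.4% and 8.77%.

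Stretches of 30 bases are shown for the ribosomal protein genes with the largest log2 fold changes and for UQCR11, which together carry each of the 4 motifs. They are written 5′ to 3′ on the strand of the gene, with the motif in capitals. The matches in MRPL36 and MRPL32 for NRF1 and YY1, and that of UQCR11 for NRF1, lie on the opposite strand and are seen as the reverse complement.
MRPL36, NRF1, chr5:1799928-1799957, minus strand: tcgcactccagCGCCTGCGcactcgctgct
MRPL36, E-box, chr5:1799876-1799905, minus strand: acgtgggcacgcCACGTGaccccccccccc
MRPL52, YY1, chr14:22829812-22829841, plus strand: aacccagattcAAGATGGCGacttcctgct
MRPL32, YY1, chr7:42932142-42932171, plus strand: tacccgcgctcCGCCATCTTtacccgaaga
UQCR11, NRF1, chr19:1605453-1605482, minus strand: cgccgcggccgCGCCTGCGcagtgtagccg
UQCR11, ETS, chr19:1605562-1605591, minus strand: gtccaaccctcgCCGGAAGttactgtaagt

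Of the 7 called members, CYCS, ATP5F1E and COX7B had a window, and it held 0 of the 4 motifs in these letters. Genes with and without a motif were both among the members with the larger and the smaller log2 fold changes.

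The ratio of counts to TPM, which is proportional to the length the authors' program assigned to a gene, differed between the groups for short genes. Implied lengths are relative, scaled so that their median over the table is the median gene length the table gives. They are not measured transcript lengths. In genes whose ratio implied a length under 300 bases, the ratio was lower under SSD by 0.10 on the log2 scale (median of 24 genes), and by 0.06 at 300 to 500 bases (48 genes). For 1500 to 3000 bases the difference was 0.00 (299 genes). By library, short genes had the highest ratio in vehicle replicates 2 and 3 and the lowest in SSD replicates 1 and 2.

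The members were short: their median implied length was 1120 bases against 2998 over the table, and 9 of 23 (39.1%) were under 800 bases against 131 of 1099 (11.9%). With an offset that takes each gene's own count to TPM ratio in each library into the edgeR fit, added after the data were seen, the median of the members was -0.18 and that of the table -0.12. All 23 estimates stayed below 0, and 0 of the 23 were called, with 6.82% of the table called lower. For 17 of the 23, and 8 of the 9 under 800 bases, the difference was larger on whole-library counts than with the offset. ATP5MF moved from -0.23 to -0.13 and NDUFA3 from -0.22 to -0.12, while CYCS moved the other way, from -0.33 to -0.45 (adjusted p = 0.0706 with the offset, and between 3.7e-07 and 0.109 over all alternatives). The part of fragment or transcript length in these changes was not tested.

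Up to 1500 bases, the medians of the members lay above those of table genes of like length on the whole-library scale, by most at 300 to 500 bases. The differences between them were not tested. At 800 to 1500 bases, where 9 members lay, the median log2 fold change was -0.19 for the members and -0.20 for all 120 genes. Under 300 bases it was -0.23 for 3 members and -0.25 for 24 genes, and at 300 to 500 bases -0.17 for 3 members and -0.23 for 48 genes. With the length offset, the medians at 300 to 500 bases were -0.10 for the members and -0.17 for all genes. CYCS and ATP5F1E, the 2 members with an implied length of 3000 bases or more, had a median of -0.31 where the 549 genes of that class had 0.23.

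**Figure D3:**
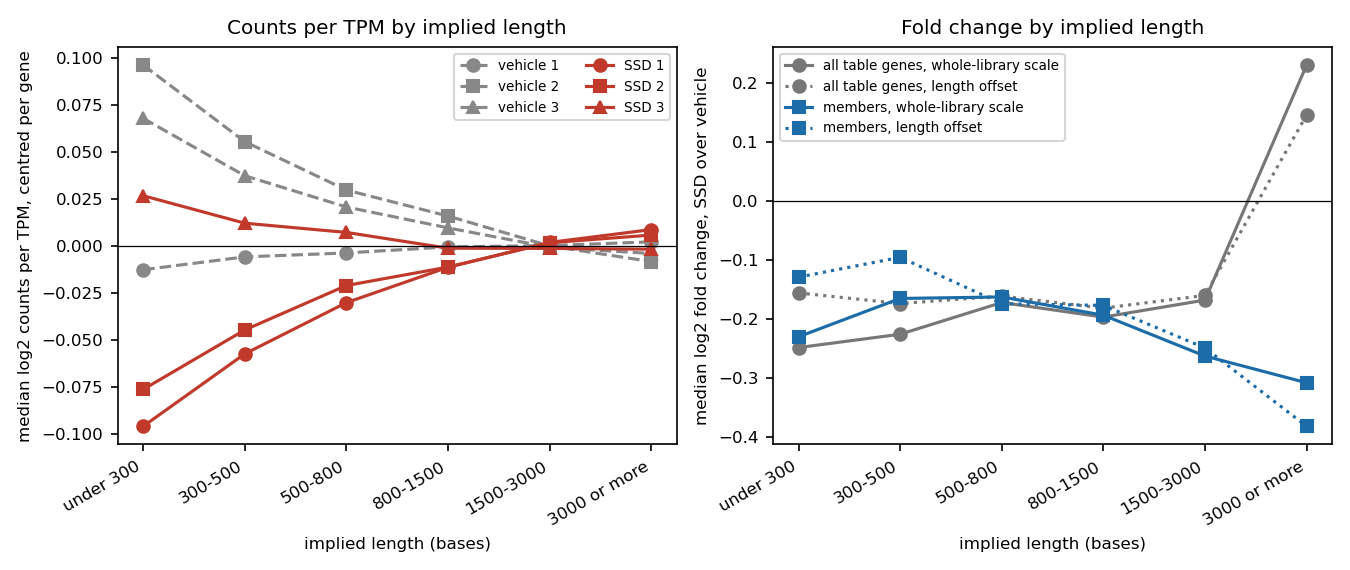
Left, median log2 ratio of counts to TPM in each library, centred per gene, by class of implied length in bases; grey dashed lines are vehicle and red lines SSD libraries, and the 6 libraries spread apart below 800 bases. Right, median log2 fold change of SSD over vehicle by the same classes for all table genes (grey) and the members (blue), on the whole-library scale (solid) and with the length offset (dotted); the members stay near the table up to 1500 bases and lie below it beyond, where classes hold 3 and 2 members.

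**Figure D4:**
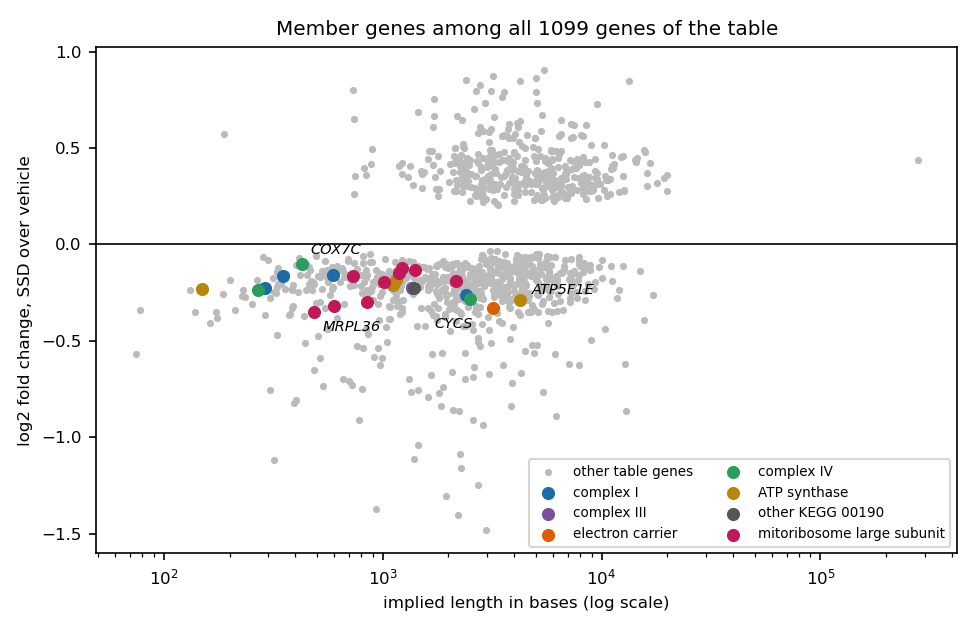
Log2 fold change of SSD over vehicle on the whole-library scale (vertical axis) against implied length in bases (horizontal log axis) for all 1099 genes; grey points are other table genes and coloured points the 23 members by role, with UQCR11 hidden behind PPA1. The members form a narrow band between -0.35 and -0.10, mostly below 3000 bases, and few genes lie near 0 because the table was selected for change.

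The SSD libraries were not alike for the subunits of the respiratory chain and ATP synthase. For these 12 genes, the median log2 TPM relative to the vehicle mean was -0.06 in SSD replicate 1, -0.20 in SSD replicate 2 and -0.19 in SSD replicate 3, and SSD replicate 1 was the highest SSD library for 8 of the 12. For the 9 ribosomal protein genes it was -0.17, -0.18 and -0.15. Over the whole table it was -0.11, -0.13 and -0.08, so SSD replicate 1 was not the highest SSD library there. On whole-library counts the 12 subunits had -0.17, -0.26 and -0.19, and SSD replicate 1 was the highest for 7 of them. Whether the subunits and the ribosomal protein genes differed in their response was not tested.

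Single libraries moved the calls. The count of members called lower by edgeR was 1 when vehicle replicate 2, vehicle replicate 3 or SSD replicate 2 was left out, in each case CYCS, where 6.82%, 8.1% and 6.73% of the table were called lower. It was 4 without vehicle replicate 1 (15.5% of the table), 6 without SSD replicate 1 (17.2%) and 8 without SSD replicate 3 (25.7%). After CYCS, the members called in most of the 17 alternative settings were PPA1 (8) and ATP5F1E (7), followed by COX7B and ATP5MF (6 each) and NDUFA4 and ATP5MC3 (5 each).

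Genes that serve the same machinery were read from lists of names, and no list was tested as a set. Their counts stand beside 64.8% of all table genes below 0, 18.8% called lower and 33.4% called higher in edgeR. Of 30 genes of mitochondrial protein import, 6 were in the table, all 6 below 0 with a median of -0.24, and 2 were called lower in edgeR. GRPEL1, a nucleotide exchange factor of the import motor, had 64.0 ± 1.83 TPM under vehicle and 53.8 ± 4.21 TPM under SSD (SD, n = 3; log2 fold change -0.26, adjusted p = 0.0181 in edgeR). TIMM17A, a subunit of the inner-membrane translocase, had 104 ± 3.39 and 88.6 ± 3.21 TPM (SD, n = 3; log2 fold change -0.23, adjusted p = 0.0361 in edgeR). Neither was called with TMM or with the length offset.

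Of 63 genes of mitochondrial translation and RNA, 2 were in the table and they differed in direction. SLIRP, an RNA-binding protein that stabilises mitochondrial messenger RNAs together with LRPPRC, fell from 383 ± 28.5 to 314 ± 11.4 TPM (SD, n = 3; log2 fold change -0.41, adjusted p = 0.0168 in edgeR). MTG1, a GTPase of mitochondrial ribosome assembly, rose from 34.8 ± 3.74 to 45.9 ± 2.48 TPM (SD, n = 3; log2 fold change 0.36, adjusted p = 0.0166 in edgeR). Both kept their direction and call with TMM, and neither was called with the length offset. Of 50 assembly factors of the respiratory chain, 5 were in the table, all below 0 with a median of -0.18, and 0 were called in edgeR (4 had an unadjusted p under 0.05). With the length offset 1 of them was called, NDUFAF4, a complex I assembly factor (log2 fold change -0.24 on the whole-library scale and -0.47 with the offset, adjusted p = 0.289 and 0.0458 in edgeR).

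HSPE1, the co-chaperonin of mitochondrial protein folding and the only one of 18 chaperones and proteases listed, fell from 517 ± 7.42 to 434 ± 21.7 TPM (SD, n = 3; log2 fold change -0.32, adjusted p = 0.00854 in edgeR), and was also called with TMM but not with the length offset. Of 24 genes of the citrate cycle, SUCLA2 alone was listed, at a log2 fold change of -0.10 that was not called. Of 31 carriers and cristae proteins 2 were listed, neither called.

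Of 21 regulators of mitochondrial genes, 3 were in the table and 2 were called lower in edgeR. PPRC1, a coactivator related to PGC-1, fell from 40.2 ± 4.11 to 33.0 ± 2.49 TPM (SD, n = 3; log2 fold change -0.26, adjusted p = 0.0402 in edgeR). MYC, a transcription factor for growth genes, fell from 218 ± 12.9 to 181 ± 19.9 TPM (SD, n = 3; log2 fold change -0.28, adjusted p = 0.0378 in edgeR). Neither was called with TMM or with the length offset. The study reports MYC mRNA as not significantly changed by SSD, in RNA-seq and in RT-qPCR. MYC is nevertheless among the rows listed with an authors' p under 0.05.

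Of 21 glycolysis genes 2 were in the table and both were called lower. HK2, which phosphorylates glucose at the mitochondrial surface, fell from 58.1 ± 1.05 to 48.3 ± 1.33 TPM (SD, n = 3; log2 fold change -0.25, adjusted p = 0.00954 in edgeR). PFKFB3, which makes the activator of phosphofructokinase, fell from 24.2 ± 1.81 to 17.7 ± 1.09 TPM (SD, n = 3; log2 fold change -0.34, adjusted p = 0.0127 in edgeR). Both were also called with the length offset, and neither with TMM.

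Cytosolic ribosomal protein genes, which are short as well (median implied length 465 bases), gave a comparison for the mitochondrial ones. The list was made by gene name. It took in RPL7L1, RPS27L, RPL22L1 and RPL39L, which are named as like genes, and missed RPL36AL (log2 fold change -0.17, adjusted p = 0.128 in edgeR). Of the 56 genes it held, all were below 0 on the whole-library scale, 52 with TMM and 54 with the length offset. Their median of -0.20 lay beside -0.19 for the 9 mitochondrial ribosomal protein genes. In edgeR 23 of the 56 were called lower against 0 of the 9, beside 18.8% of the table. The median level was 2005.5 TPM for the cytosolic genes and 90.0 TPM for the mitochondrial ones, and a difference in response was not tested. The 6 called genes with the largest changes were RPL39L, RPL27, RPL22L1, RPL39, RPS15A and RPS23, with log2 fold changes from -0.70 to -0.37 and adjusted p between 0.0013 and 0.0250 in edgeR. With TMM 7 of the 56 were called lower, and with the length offset 4.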

How the data were processed

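Polyadenylated RNA of 6 AGS libraries was sequenced. The table the authors deposited gives, per gene and library, an estimated count (an expected read number, of which 33.5% are not whole) and a TPM scaled over all genes of the library, made on the Majorbio cloud platform. The labels name GRCh38.p13, and the aligner and counter are not given in the sources used here. Columns with the authors' own group means, fold changes and p-values were not used as results. Columns were matched to samples by the names in the labels.

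Estimated counts were rounded and tested with edgeR 4.0.16's quasi-likelihood test (limma 3.58.1, R 4.3.3) after filterByExpr, which kept all 1099 genes. The scale was each library's median log2 ratio of counts to TPM, centred per gene, because TMM has no unchanged majority in a selected table. Benjamini-Hochberg adjustment took 12000 genes as tested, a round number for a cell line, and every gene not listed was given a larger p. Alternatives were TMM, the size factors and Wald test of DESeq2 1.42.0, table totals, limma on log2(TPM + 1) and log2(TPM + 0.1), no filter, a mean of at least 100 counts, adjustment over the table alone, the replicate number as a block and each library left out. A length offset was added after the data were seen. In simulated counts of 1099 genes for SSD against vehicle, the test recovered 50 of 65 genes changed 1.25-fold. It recovered 57 of 60 changed 1.5-fold and 75 of 75 changed 2-fold, and called 2 of 899 unchanged genes. The members' median change of -14.3% was smaller than any change simulated, so recovery at that size was not tested. The simulated spread came from these selected genes, and no length shift was simulated.

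The members and lists were chosen with earlier results of these data known. Values in every library are given for the called members and for the most abundant member of each role, other members by log2 fold change or range, and list genes by name when called, at most 6 per list by size of change. NDUFAF4, NDUFB11, ATP5MK, SUCLA2, RPL36AL, RPL7L1, RPS27L and the listed markers fall outside this and were chosen after their values were seen. Loci were read from GENCODE release 29 (GRCh38), where 23 members matched, 13 with a pseudogene copy, 8 with exons shared on the same strand and 8 on the other.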

Additional observations from a re-analysis of the deposited data

How the results depend on the processing

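All 23 members kept a log2 fold change below 0 in each of the 17 alternative settings (391 values), 0 members were called higher, and no estimate reversed. The number called lower, 7, was 1 with TMM or with DESeq2's size factors, 3 with table totals, 0 with limma on log2(TPM + 1) or log2(TPM + 0.1) (15 and 16 at an unadjusted p under 0.05), 0 with the length offset (14 at an unadjusted p under 0.05), 21 with adjustment over the table alone, and between 1 and 8 with a library left out. DESeq2's Wald test gave 9, and the other filters 7. The genes called lower over the table, 207, were 85, 84 and 121 with TMM, DESeq2's size factors and table totals, 70 with either limma fit, 75 with the length offset, 580 over the table alone and 74 to 282 with a library left out. Those called higher, 367, were 107 and 108 with limma, 172 with the length offset and 162 to 381 with a library left out. The members' median of -0.22 was -0.15, -0.13 and -0.17 on those scales, -0.17 and -0.18 with limma, -0.18 with the length offset and -0.23 to -0.18 with a library left out. The scales moved the median by construction, by 0.07, 0.09 and 0.05, and the causes of the other shifts were not tested.

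With the replicate block, 1 member (CYCS), 85 table genes lower and 172 higher were called. Same-numbered libraries did not deviate together (r across 1099 genes of -0.23, -0.01 and -0.03), so the numbers were not read as pairs. The standard errors were largest for MRPL36 and MRPL32, the members with the fewest counts. MRPL52, with a mean of 1075 counts per library, came close to them (SE 0.0908). The scale is limited by a table that holds a selected share of each library.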
